A study of Homo sapiens with 6 samples.

Results

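The replication-dependent histone genes are the protein-coding genes whose GENCODE 29 symbols begin with HIST1H, HIST2H, HIST3H or HIST4H. There are 71 of them among the 60658 Ensembl identifiers of each file. Of these, 57 lay above 0.1 FPKM in at least 1 library, against 23671 of all identifiers. The study treated 2 human prostate cancer cell lines that resist enzalutamide, C4-2B MDVR and CWR22Rv1, for 48 h and sequenced their RNA. The treatments were the vehicle DMSO and a dose of 10 µM of either apoptozole (APO) or VER155008 (VER), small molecules that inhibit the chaperone HSP70. The medium of C4-2B MDVR held 20 µM enzalutamide and that of CWR22Rv1 held none, so the line and the drug cannot be told apart in any comparison between the lines. The labels of the first line name LNCaP-C4-2B as the source and call the cells parental, while the titles name C4-2B MDVR. Each of the 6 conditions has a single library. No difference below therefore has a replicate check, and no p-value or SD is given.

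Histones are the proteins around which DNA is wound. H2A, H2B, H3 and H4 form the core of the nucleosome, and H1 binds the linker DNA between nucleosomes. Most core and linker histone is made from replication-dependent genes during S phase, and their mRNAs usually end in a short stem-loop in place of a poly(A) tail. The stem-loop is bound by SLBP, and cleavage just downstream of it makes the 3′ end. A fraction of these genes is also known to give polyadenylated mRNA from a second, distal end, most of all in cells that have stopped dividing. Per the labels, the libraries were made from RNA selected with oligo(dT). The values are thus those of histone RNA retained by the selection, and a change in transcription cannot be told apart from a change in the polyadenylated share. In bulk RNA, fewer cells in S phase and less RNA per cell cannot be told apart either.

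The stem-loop was searched for in the annotated transcripts, since these mRNAs usually end in it in place of a poly(A) tail. A stem of 6 bases around a loop of 4 was found in 32 of the 71 genes. In 35 genes the annotation stops at the coding sequence, so the stretch was not there to be searched. The following 30-base windows, from GENCODE 29 transcripts written as DNA, show the stem-loop in capitals. They are given for genes that stand at opposite ends of the results below.
HIST3H2A: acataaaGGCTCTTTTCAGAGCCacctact
HIST1H2AC: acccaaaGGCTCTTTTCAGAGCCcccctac
HIST1H2BC: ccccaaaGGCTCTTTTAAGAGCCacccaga
HIST2H2BE: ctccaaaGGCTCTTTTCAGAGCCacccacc
HIST1H2BL: acccaaaGGCTCTTTTCAGAGCCactcact
HIST1H3E: atccaaaGGCTCTTCTCAGAGCCaaccact
HIST1H4H: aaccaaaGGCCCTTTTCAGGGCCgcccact
HIST1H4B: ttccaatGGCCCTTTTCAGGGCCgcccact
The 16 bases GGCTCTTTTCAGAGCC were held by 17 H2A, H2B and H3 genes. The 8 H4 genes with a stem-loop had a stem of their own, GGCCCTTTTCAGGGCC in 5 and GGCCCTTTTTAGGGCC in 3. A loop of TTTA in place of TTTC, in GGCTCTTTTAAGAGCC, was found in 5 H2B and H3 genes. HIST1H2AC and HIST1H2BL share the same 16 bases, although 1128 annotated bases follow the stem-loop in HIST1H2AC and 40 follow it in HIST1H2BL.

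The genes were further divided by the length annotated beyond the stop codon. In 25 genes at least 1 annotated transcript has more than 150 bases of 3′ untranslated sequence, which is called a long 3′ end here. The other 46 have a short one or none. A polyadenylation signal, AATAAA or ATTAAA within 40 bases of an annotated end, was found in 20 of the 25 genes with a long 3′ end and in 3 of the 46 with a short one, HIST2H2AA3, HIST2H2AA4 and HIST1H4J. In HIST1H4J the match lies before the stem-loop, not beyond it. No H1 gene had a long 3′ end.

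By position, 55 genes lie in the HIST1 cluster on chromosome 6 (25726132 to 27893843, GRCh38) and 12 in HIST2 on chromosome 1 (143905556 to 149887916). A further 3 lie in HIST3 on chromosome 1 (228424845 to 228460470) and 1, HIST4H4, on chromosome 12 (14767999 to 14771131). The filter was passed by 43, 11, 2 and 1 of them. The 14 genes outside the filter were listed at 0 in all 6 libraries, among them HIST1H1A, HIST1H2AA, HIST1H2BA and HIST3H3. The lowest genes inside it were HIST2H3A, at most 0.119 FPKM, and HIST1H1T, at most 0.221 FPKM. Of the 57 genes, 25 exceeded 0.1 FPKM in all 6 libraries and 6 in 1 library only, and the direction of those 6 follows from the filter. A mean of 1 FPKM or more over the 6 libraries was reached by 38 genes, of which 17 had a long 3′ end and 21 a short one. Of these, 10, 7 with a short 3′ end, fell under it without the C4-2B MDVR DMSO library, among them HIST1H4A, HIST1H3B and HIST1H2AJ. These 10 had to be lower, on average, in the other libraries. Where a minimum is used for counts below, the mean was therefore taken over the 4 libraries that the comparison does not use.

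The libraries differed in other respects. Mitochondrial genes held 14.8% to 16.4% of the summed FPKM in C4-2B MDVR, and 25.7%, 10.4% and 25.7% in CWR22Rv1 cells with DMSO, APO and VER. The histone genes held 0.0203% to 0.0935% of the FPKM outside the mitochondrial chromosome. The prostate markers KLK3, KLK2, HOXB13, FOLH1, TMPRSS2, KRT8 and KRT18 were present in all 6 libraries. PTPRC of leukocytes and PECAM1 of endothelium lay at or below 0.03 FPKM. COL1A1, a fibroblast marker, lay between 3.32 and 10.8 FPKM and COL1A2 between 0.03 and 0.20 FPKM. ALB, a liver marker, lay at 132 to 416 FPKM in the CWR22Rv1 libraries and at 0.26 to 0.47 FPKM in the C4-2B MDVR libraries. The part of these differences in the results was not tested.

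A single fragment on a short gene gives a large FPKM. Over annotated genes with 1 transcript of about the length of a core histone coding sequence, the 10th percentile of the values above 0 lay between 0.279 and 0.494 FPKM in the 6 libraries. Values under about 1 FPKM thus rest on few fragments, and a gene listed at 0 is reported only as such. The deposited values carry no read totals, so the depth is unknown and no counting interval is given.

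In DMSO, the summed level of the 71 genes was 533 FPKM in C4-2B MDVR cells and 106 FPKM in CWR22Rv1 cells, a ratio of 5.03. On the log2(FPKM + 0.1) scale, on which all differences below are given, 47 of the 57 genes were higher in C4-2B MDVR by more than 1.2-fold and 8 were lower. Among all genes 35.5% were higher and 39.9% lower. By more than 2-fold, 40 were higher and 8 lower, beside 17.1% and 24% of all genes. The median difference was 2.62 over the histone genes and 0.00 over all genes. Of the 28 genes with a mean of 1 FPKM or more in the 4 treated libraries, 26 were higher and 1, HIST1H2AK, was lower, with a median of 2.73. Among all genes with that mean, 41.1% were higher and 36.3% lower. All 5 classes were summed higher in C4-2B MDVR, by a factor of 8.22 for H1, 2.75 for H2A, 10.2 for H2B, 4.37 for H3 and 4.23 for H4. Among the 6 genes with the highest mean, HIST3H2A alone differed by less than 1.2-fold between the lines, with 23.8 FPKM in C4-2B MDVR and 26.7 FPKM in CWR22Rv1.

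With either inhibitor the summed level fell in C4-2B MDVR cells and rose in CWR22Rv1 cells. It was 533, 367 and 300.2 FPKM in C4-2B MDVR with DMSO, APO and VER, and 106, 158 and 161 FPKM in CWR22Rv1. The highest CWR22Rv1 sum thus stayed below the lowest C4-2B MDVR sum. In C4-2B MDVR the sum over the genes with a short 3′ end went from 325 to 178 and 116 FPKM. The sum over the genes with a long 3′ end went from 208 to 189 and 184 FPKM. Within the long-ended genes, H2B fell to 0.667 and 0.603 and H4 to 0.591 and 0.709 of the DMSO sum, while H2A rose, so the fall was not confined to short 3′ ends. In CWR22Rv1 the sum over long 3′ ends went from 51.4 to 101 and 89.1 FPKM, and that over short 3′ ends from 54.4 to 57.1 and 72.3 FPKM. Few genes carried the sums. Without the 6 genes of highest mean, the sum was 327, 137 and 120 FPKM in C4-2B MDVR. In CWR22Rv1 that sum was 42.1 FPKM with DMSO. It rose there to 1.30 times the DMSO sum with APO and to 1.19 times with VER.

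**Figure D1:**
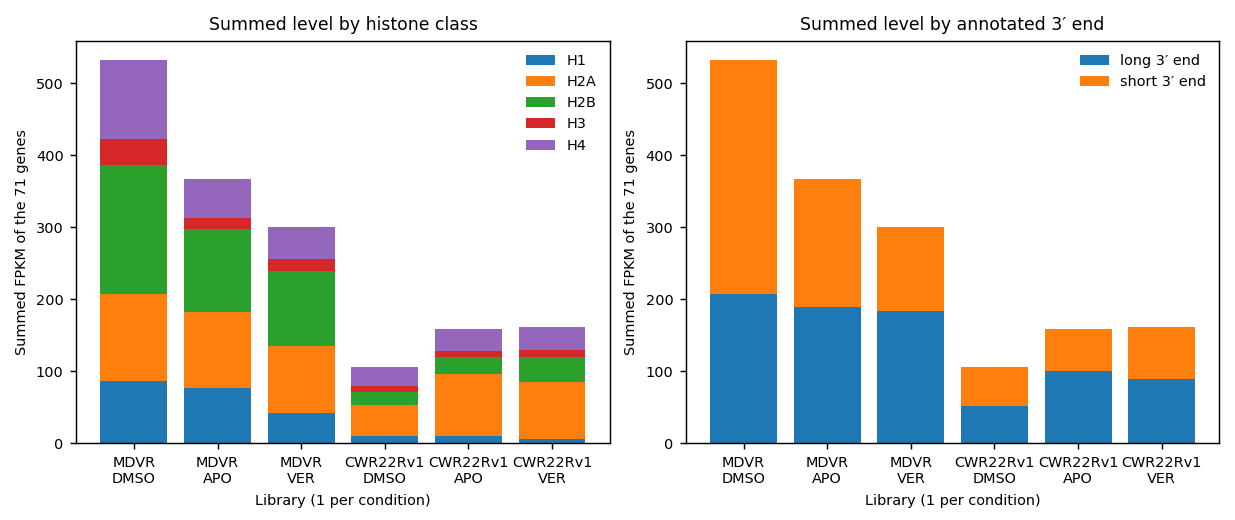
Summed FPKM (y axis, from 0) of the 71 histone genes in each of the 6 libraries (x axis), stacked by histone class on the left and by annotated 3′ end on the right; MDVR is C4-2B MDVR. The total falls from 533 to 300.2 FPKM across the C4-2B MDVR libraries, with the larger drop in the genes with a short 3′ end, and rises from 106 to 161 FPKM across the CWR22Rv1 libraries.

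By class, H1 was at 87.4 FPKM in C4-2B MDVR with DMSO, at 76.5 with APO and at 41.6 with VER, and was 10.6, 10.5 and 6.85 FPKM in CWR22Rv1. H2B went from 180 to 116 and 105 FPKM in C4-2B MDVR and from 17.6 to 23.4 and 35.1 FPKM in CWR22Rv1. H2A went from 120 to 105 and 93.1 FPKM and from 43.5 to 85.6 and 78.5 FPKM. The class sums are read here because near-identical genes can exchange reads within a class. H3 went from 35.4 to 14.8 and 17.4 FPKM in C4-2B MDVR, and H4 from 110 to 53.9 and 43.4 FPKM. In CWR22Rv1 they lay between 8.10 and 9.57 FPKM for H3 and between 26.1 and 31.9 FPKM for H4. Within H2A the 3′ end groups moved apart in C4-2B MDVR. Its 3 long-ended genes rose from 39.6 to 76.5 and 69.4 FPKM, while its 14 others fell from 80.2 FPKM to 0.361 and 0.296 of that sum.

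Per gene, 9 of the 57 were higher and 37 lower with APO in C4-2B MDVR cells, where 33.6% of all genes were higher and 31.2% lower. With VER 9 were higher by over 1.2-fold and 38 lower, where 31.6% of all genes were higher and 30.9% lower. The medians were -0.66 and -1.23, beside 0.00 over all genes in both comparisons. In CWR22Rv1 cells 26 were higher and 18 lower with APO, where 33.3% of all genes were higher and 36.6% lower, and 27 were higher and 15 lower with VER, where the shares were 30.1% and 30.2%. The medians there were 0.03 and 0.00. By more than 2-fold, 4 genes were higher and 26 lower in C4-2B MDVR after APO treatment (13.1% and 11.3% of all genes), and 4 were higher and 32 lower after VER (12.3% and 11.3%). In CWR22Rv1 the same threshold gave 15 higher and 10 lower after APO (12.6% and 15.3%), and 11 higher and 8 lower after VER (9.89% and 8.14%). APO and VER are set against the same DMSO library in each line, so the comparisons are not independent.

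Those counts include genes that passed the filter through a DMSO library alone. Among the genes with a mean of 1 FPKM or more in the 4 libraries not compared, fewer were lower. With APO in C4-2B MDVR, 13 of 25 were lower and 6 higher, with a median of -0.30, where 32.9% of all genes with that mean were lower and 35.1% higher. With VER there, 15 of 26 were lower and 6 higher, with a median of -0.55, where 32.5% were lower and 33.5% higher. In CWR22Rv1 cells 19 of 38 were higher and 12 lower with APO, with a median of 0.22, where 35.8% were higher and 36% lower. With VER 20 of 39 were higher and 11 lower, with a median of 0.28, where 27.6% were higher and 30% lower.

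By annotated 3′ end, the medians of the genes with that mean lay further apart with VER than with APO in C4-2B MDVR cells. The genes are not the same for APO and VER, since the libraries in the mean differ. With the mean taken over all 6 libraries, the DMSO library included, the short-ended medians were -2.26 with APO and -1.99 with VER. The long-ended medians were then -0.20 and -0.01, so the order of the inhibitors depends on the minimum used. With VER and the mean over the 4 libraries not compared, 11 of the 13 with a short 3′ end were lower and 1 was higher. Their median was -1.95. Of the 13 with a long one, 4 were lower and 5 were higher, with a median of -0.00. With APO, 8 of the 12 with a short 3′ end were lower and 1 was higher, with a median of -0.43, and 5 of the 13 with a long one were lower and 5 were higher, with a median of -0.20. The 1 gene with a short 3′ end that was higher is HIST1H2AK, which was listed at 0 with DMSO. In CWR22Rv1 cells the medians were 0.27 for long and 0.00 for short 3′ ends with APO, and 0.50 and 0.00 with VER. Long-ended genes were higher in 9 of 17 with APO and in 11 of 17 with VER, and short-ended genes in 10 of 21 and 9 of 22. The difference between the 3′ end groups was not tested, for want of replicate libraries.

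**Figure D2:**
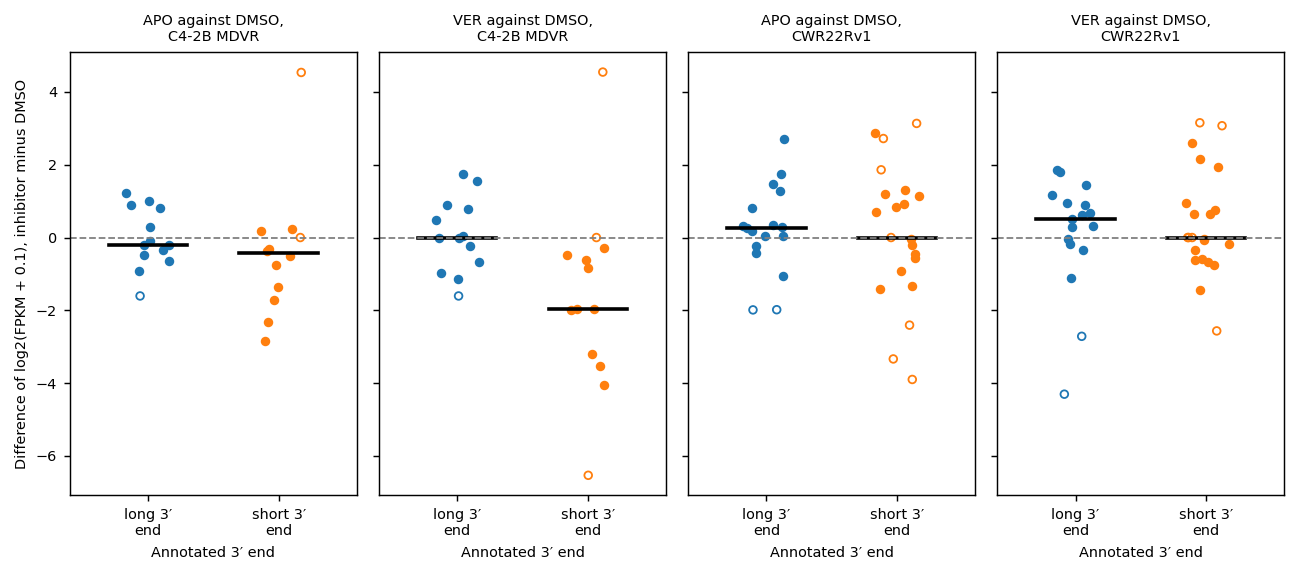
Difference of log2(FPKM + 0.1) between inhibitor and DMSO (y axis) for the histone genes with a mean of 1 FPKM or more in the 4 libraries not compared, by annotated 3′ end (x axis), in 4 comparisons. Each point is a gene, and open points have a value under 0.001 FPKM in 1 of the compared libraries. Black bars are medians and dashed lines the median of all genes with that mean. The set of genes differs between comparisons, since the libraries in the mean differ. In C4-2B MDVR with VER the short-ended genes lie lower, with a median of -1.95, while with APO the medians of short and long ends are -0.43 and -0.20, and in CWR22Rv1 the short-ended median is 0.00 with either.

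The leading H2A gene was HIST3H2A (ENSG00000181218, chromosome 1, 228456979 to 228457873, minus strand), which encodes a core H2A and has a long 3′ end. It was at 23.8, 48.2 and 40.9 FPKM in C4-2B MDVR with DMSO, APO and VER, and at 26.7, 64.7 and 51.7 FPKM in CWR22Rv1. Both DMSO libraries lay below all 4 treated libraries. The log2 differences were 1.02 with APO in C4-2B MDVR and 0.78 with VER, and 1.28 and 0.95 in CWR22Rv1.

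HIST1H2AC (ENSG00000180573, chromosome 6, 26124145 to 26139116, plus strand), another H2A gene with a long 3′ end, was higher with either inhibitor in both lines. Its level was 13.8, 25.9 and 25.7 FPKM in C4-2B MDVR and 2.47, 8.43 and 8.83 FPKM in CWR22Rv1. The treated libraries of a line were close to each other and above its DMSO library. The log2 differences were 0.90, 0.89, 1.73 and 1.80. HIST1H2AG, the remaining H2A gene with a long 3′ end, moved the same way by less, from 1.98 to 2.44 and 2.80 FPKM in C4-2B MDVR and from 1.06 to 1.33 and 1.34 FPKM in CWR22Rv1.

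Among the H2A genes with a short 3′ end, HIST2H2AC fell from 11.4 to 3.42 and 1.15 FPKM in C4-2B MDVR. In CWR22Rv1 it was at 6.50, 4.70 and 5.12 FPKM. HIST2H2AB was at 7.38 FPKM in C4-2B MDVR with DMSO and was listed at 0 with APO and VER, and in CWR22Rv1 it was at 0.492, 0.413 and 0 FPKM. HIST1H2AJ (6.28 FPKM), HIST1H2AH (3.79 FPKM) and HIST1H2AD (3.44 FPKM) exceeded 0.1 FPKM in the C4-2B MDVR DMSO library only. These 3 are among the 6 genes that passed the filter through 1 library.

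Of the H2B genes, HIST1H2BK (ENSG00000197903, chromosome 6, 27146418 to 27146798, minus strand) moved in opposite directions in the lines. It was at 50.5, 40.9 and 36.0 FPKM in C4-2B MDVR with DMSO, APO and VER. In CWR22Rv1 it was at 3.63, 8.17 and 22.5 FPKM, a log2 difference of 1.15 with APO and 2.60 with VER. VER gave it the largest rise of any of the 38 genes in CWR22Rv1 that was above 0.001 FPKM in both compared libraries. All 3 CWR22Rv1 values stayed below the lowest C4-2B MDVR value.

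HIST2H2BE (ENSG00000184678, chromosome 1, 149884459 to 149886652, minus strand) has 1801 bases of annotated 3′ untranslated sequence and the highest mean of the H2B genes with a long 3′ end. It held its level in C4-2B MDVR, with 31.3, 27.2 and 31.1 FPKM, and was higher with either inhibitor in CWR22Rv1, with 3.48, 6.15 and 6.50 FPKM. HIST1H2BD was at 30.5, 19.5 and 15.4 FPKM and at 2.75, 3.13 and 1.23 FPKM, so that VER gave the lowest value in each line. HIST2H2BF fell from 14.5 to 2.59 and 1.66 FPKM in C4-2B MDVR, although its 3′ end is long, and lay between 0.395 and 0.480 FPKM in CWR22Rv1. HIST1H2BN was between 6.30 and 7.39 FPKM in C4-2B MDVR and between 1.41 and 2.22 FPKM in CWR22Rv1.

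**Figure D3:**
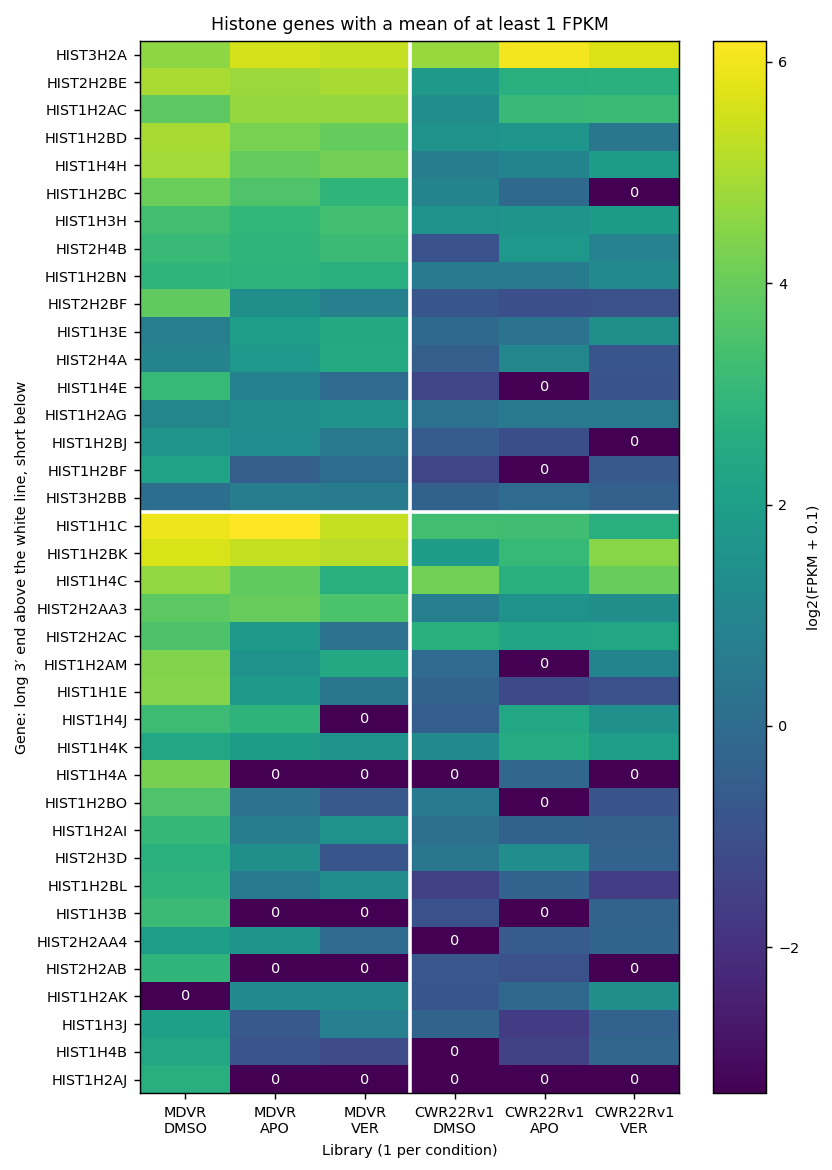
Level of the 38 histone genes with a mean of 1 FPKM or more (y axis, by annotated 3′ end and then by mean) in the 6 libraries (x axis; MDVR is C4-2B MDVR), as log2(FPKM + 0.1) in colour, with 0 written in cells under 0.001 FPKM. In C4-2B MDVR most short-ended genes are darker with APO and VER than with DMSO, while HIST1H2AK is brighter, and HIST3H2A is bright in all 6 libraries. Of the short-ended genes, 7 reach that mean only with the C4-2B MDVR DMSO library, so they had to be darker, on average, in the others.

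The H1 gene with the highest level was HIST1H1C. HIST1H1C (ENSG00000187837, chromosome 6, 26055787 to 26056428, minus strand) encodes the linker histone H1.2 and was at 61.6, 73.0 and 40.4 FPKM in C4-2B MDVR and at 9.93, 9.68 and 6.20 FPKM in CWR22Rv1. VER gave the lowest value in each line, by -0.61 and -0.67 on the log2 scale, and APO differed from DMSO by 0.24 and -0.04. HIST1H1E, which encodes H1.4, fell from 21.8 to 3.44 and 1.23 FPKM in C4-2B MDVR. In CWR22Rv1 it was at 0.701, 0.326 and 0.422 FPKM. HIST1H1B, which encodes H1.5, went from 3.84 to 0.102 and 0 FPKM in C4-2B MDVR.

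Of the H3 genes, HIST1H3H was the highest by mean and differed from DMSO by at most 0.34 on the log2 scale, with 9.83, 7.75 and 9.82 FPKM in C4-2B MDVR and 2.87, 2.94 and 3.50 FPKM in CWR22Rv1. HIST1H3E was the H3 gene that was higher with both inhibitors in C4-2B MDVR, at 1.57, 3.79 and 5.44 FPKM, with log2 differences of 1.22 and 1.73. It was at 0.881, 1.12 and 2.59 FPKM in CWR22Rv1. Both have a long 3′ end. HIST1H3B, with a short one, was at 8.77 FPKM in C4-2B MDVR with DMSO and was listed at 0 with APO and VER. HIST2H3D went from 6.66 to 2.55 and 0.480 FPKM.

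Of the H4 genes, HIST1H4C (ENSG00000197061, chromosome 6, 26103876 to 26104310, plus strand) was the highest by mean. Its level was 24.7, 14.5 and 6.30 FPKM in C4-2B MDVR and 17.6, 6.51 and 15.7 FPKM in CWR22Rv1, lowest with VER in the first line and with APO in the second. HIST1H4H, with a long 3′ end, was at 28.8, 15.2 and 18.1 FPKM and at 1.55, 1.88 and 3.63 FPKM. HIST1H4A (chromosome 6, 26021679 to 26021990) was at 18.6 FPKM in C4-2B MDVR with DMSO and listed at 0 with APO and VER. In CWR22Rv1 it was at 0.778 FPKM with APO and listed at 0 in the others. HIST1H4B fell from 5.04 to 0.476 and 0.358 FPKM in C4-2B MDVR, and HIST1H4E, with a long 3′ end, from 8.11 to 1.72 and 0.900 FPKM. HIST4H4 was an H4 gene with more RNA in CWR22Rv1, at 2.12, 1.64 and 1.88 FPKM, than in C4-2B MDVR, at 0.204, 0 and 0 FPKM.

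Several values cannot be assigned to 1 gene. In 12 genes most of the 100-base stretches also occur, on either strand, in another of the 71, and 51 genes share none. HIST2H2AA3 and HIST2H2AA4 were at 17.8, 18.6 and 12.2 FPKM together in C4-2B MDVR and at 1.56, 3.44 and 3.23 FPKM in CWR22Rv1. HIST2H4A and HIST2H4B were at 10.4, 10.7 and 14.4 FPKM together and at 1.06, 5.28 and 2.26 FPKM. HIST2H3A, HIST2H3C and HIST2H3D were at 7.20, 2.74 and 0.535 FPKM together and at 1.35, 2.57 and 0.864 FPKM. HIST1H2AM shares 84.0% of its stretches with HIST1H3J, which its model overlaps on the same strand over 346 bases. HIST1H2AK lies over HIST1H2BN on the opposite strand, and the 100% of its stretches that are shared match as the reverse complement only. HIST1H4J was at 9.15, 7.12 and 0 FPKM in C4-2B MDVR while HIST1H4K, of which 100% are shared with it, was at 5.17, 3.63 and 2.88 FPKM. The 0 of HIST1H4J with VER is therefore uncertain. HIST1H2AI shares 57.7% of its stretches with HIST1H2AJ, which shares 80.9% of its own. The split of reads between these genes is open, so the 0 values of HIST1H2AJ are uncertain too. HIST1H2AI and HIST1H2AJ were both lower in the treated C4-2B MDVR libraries than in the DMSO library of that line. HIST1H2AJ exceeded 0.1 FPKM in that DMSO library only, so its direction follows from the filter. The 8 values above 0 but under 0.001 FPKM, in HIST1H2AM, HIST1H2AD and HIST1H3D, are read as near 0. HIST1H2AD and HIST1H3D share no stretch with another of the 71 but lie over AL031777.3 on the same strand. AL031777.3 was at 5.39, 4.71 and 1.76 FPKM in C4-2B MDVR and at 0.25, 0.65 and 0.35 FPKM in CWR22Rv1.

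Most H2A and H2B genes are arranged in pairs that are transcribed away from each other, and 11 such pairs were found with start sites within 500 bases. In 6 of them both genes had a mean of 1 FPKM or more over all 6 libraries. HIST1H2BO and HIST1H2BJ fell under that mean without the C4-2B MDVR DMSO library, so they had to be lower, on average, in the others. HIST1H2AC and HIST1H2BC, whose annotated starts lie 219 bases apart, went opposite ways. HIST1H2BC (ENSG00000180596, chromosome 6, 26114873 to 26123926, minus strand) was at 16.4, 11.7 and 7.42 FPKM in C4-2B MDVR and at 1.87, 0.847 and 0 FPKM in CWR22Rv1. HIST1H2AC was higher with either inhibitor in each line, with the values above. Both genes have a long 3′ end with a polyadenylation signal. In HIST1H2AC the signal and the stem-loop lie in the same transcripts. In HIST1H2BC the signal lies in a spliced transcript without a stem-loop found, and the transcript with the stem-loop has no signal.

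In the pair of HIST1H2AM (chromosome 6, 27892757 to 27893149, minus strand) and HIST1H2BO (27893463 to 27893843, plus strand), 314 bases apart, both fell in C4-2B MDVR. HIST1H2AM went from 21.0 to 2.84 and 5.29 FPKM, and HIST1H2BO from 11.7 to 1.07 and 0.536 FPKM. In CWR22Rv1 they were at 0.911, near 0 and 1.85 FPKM and at 1.39, 0 and 0.451 FPKM. HIST1H2AI and HIST1H2BL also fell together in C4-2B MDVR, from 7.98 to 1.52 and 2.79 FPKM and from 7.40 to 1.47 and 2.45 FPKM. The values of HIST1H2AI may include reads of HIST1H2AJ, with which it shares sequence. HIST2H2AC and HIST2H2BE parted, with the values given above, and so did HIST1H2AG and HIST1H2BJ, the latter at 3.14, 2.28 and 1.32 FPKM in C4-2B MDVR. HIST3H2BB, the partner of HIST3H2A, was at 0.989 FPKM in C4-2B MDVR and 0.677 FPKM in CWR22Rv1 with DMSO, and the treated libraries differed from these by at most 0.56 on the log2 scale.

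**Figure D4:**
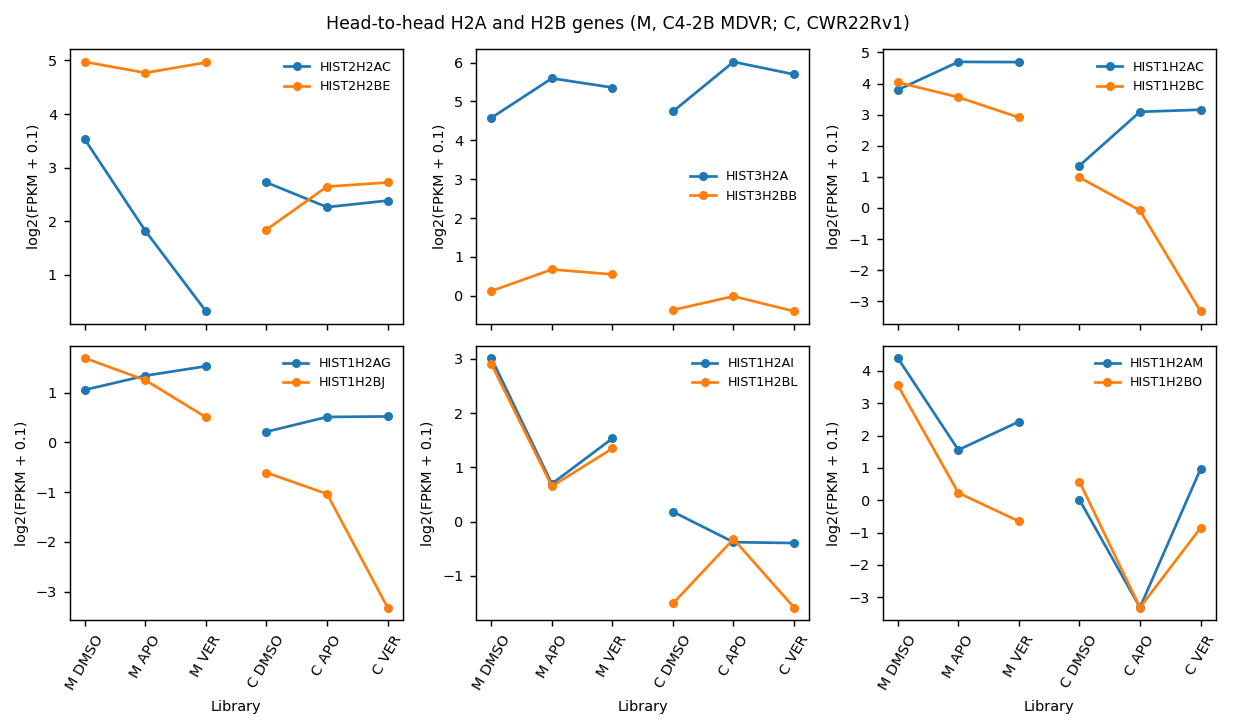
Level as log2(FPKM + 0.1) (y axis) in the 6 libraries (x axis; M is C4-2B MDVR and C is CWR22Rv1) for the 6 head-to-head pairs in which both genes have a mean of 1 FPKM or more, H2A in blue and H2B in orange. HIST1H2AC rises while HIST1H2BC falls in both lines, and HIST1H2AM and HIST1H2BO fall together in C4-2B MDVR. HIST1H2BO and HIST1H2BJ reach that mean only with the C4-2B MDVR DMSO library. On the axis -3.32 is a value of 0.

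The stretch between a pair of genes serves both as promoter. It is printed from RefSeq (GRCh38.p14) for a pair that parted and a pair that fell together, with 3 motifs in capitals on either strand: the TATA box as TATAAA, the CCAAT box, and ATTTGCAT, to which octamer factors such as OCT1 bind. HIST1H2AC is read on the plus strand at chr6:26123922-26124221, and HIST1H2AM on the minus strand at chr6:27893136-27893435.
HIST1H2AC: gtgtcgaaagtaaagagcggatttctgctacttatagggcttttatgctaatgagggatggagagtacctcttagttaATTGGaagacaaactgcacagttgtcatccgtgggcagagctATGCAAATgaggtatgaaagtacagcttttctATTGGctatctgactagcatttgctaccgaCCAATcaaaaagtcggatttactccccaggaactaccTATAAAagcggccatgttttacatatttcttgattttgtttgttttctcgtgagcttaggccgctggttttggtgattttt
HIST1H2AM: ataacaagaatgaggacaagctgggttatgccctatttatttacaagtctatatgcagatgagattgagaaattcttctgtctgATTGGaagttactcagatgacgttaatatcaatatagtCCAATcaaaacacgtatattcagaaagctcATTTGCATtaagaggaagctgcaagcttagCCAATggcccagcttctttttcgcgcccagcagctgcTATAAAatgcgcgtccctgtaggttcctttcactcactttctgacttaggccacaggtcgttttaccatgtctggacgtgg
Each of the windows holds 3 CCAAT, 1 ATTTGCAT and 1 TATAAA. They stand for 1 pair of each kind, and the windows of other pairs differ in these counts. HIST1H2AI, whose pair also fell together, has 4 CCAAT, 0 ATTTGCAT and 2 TATAAA. Of the other pairs that parted, HIST2H2AC has 3, 1 and 2 and HIST1H2AG has 4, 1 and 3. A relation of the motifs to the changes was not tested. None of the motifs marked in the printed windows overlap each other.

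A promoter from 250 bases before to 50 bases after the start was given for 66 of the 71 genes. The genes without an entry were HIST1H2AH, HIST1H3I, HIST1H3J, HIST1H4A and HIST1H4C. TATAAA was found on either strand in 44 of the 66 (66.7%), beside 11.5% of 35116 promoters of all genes. CCAAT was found in 56 (84.8%), beside 34.6%, and it was in every H1, H2A, H2B and H3 promoter but in 3 of 13 of H4. ATTTGCAT was found in 26 (39.4%), beside 1.77%. It was in 14 of 18 H2B and 11 of 16 H2A promoters, in 1 of 13 of H3 and in none of H1 or H4. The H3 gene is HIST1H3D, whose RefSeq window is the same as that of HIST1H2AD. The windows of a head-to-head pair overlap, so H2A and H2B shares are not independent.

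Genes that act on histone mRNA are described from lists of well-known members. SLBP, which binds the stem-loop, was at 58.3, 30.1 and 28.4 FPKM in C4-2B MDVR with DMSO, APO and VER and at 88.8, 56.7 and 64.5 FPKM in CWR22Rv1. It was thus lower with either inhibitor in both lines. Of 15 genes of histone transcription and 3′ end formation, 10 were lower with APO in C4-2B MDVR and 9 with VER, and 8 and 7 in CWR22Rv1. In the same order, 0, 1, 3 and 1 were higher. The shares of all genes that were lower, 31.2%, 30.9%, 36.6% and 30.2%, are the background for these and the next counts. NPAT, which activates histone genes in S phase, was at 5.36, 4.52 and 3.64 FPKM and at 4.64, 3.61 and 4.28 FPKM. CASP8AP2, known as FLASH and needed for histone 3′ end processing, was at 3.22, 1.43 and 1.33 FPKM and at 10.3, 5.08 and 7.64 FPKM. Of 5 genes of histone mRNA decay, 4 and 4 were lower in C4-2B MDVR and 2 and 1 in CWR22Rv1, and none was higher. With 5 genes, the CWR22Rv1 decay counts lie near those shares. UPF1, a helicase of mRNA decay, was at 39.9, 22.6 and 31.7 FPKM and at 26.2, 14.6 and 19.6 FPKM.

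All 18 listed genes of S phase were lower by more than 1.2-fold with each inhibitor in each line. Their median log2 differences were -1.65 with APO in C4-2B MDVR and -2.16 with VER, and -1.62 and -0.91 in CWR22Rv1. MCM2, a subunit of the replicative helicase, was at 93.3, 21.9 and 15.0 FPKM and at 72.6, 20.6 and 31.7 FPKM. CCNE2, a cyclin of S phase entry, was at 22.6, 4.95 and 2.96 FPKM and at 25.6, 4.57 and 11.3 FPKM. In CWR22Rv1 cells the S phase genes thus fell, while the summed histone level rose and the median histone gene was at 0.03 and 0.00. Between the lines in DMSO, the S phase genes had a median difference of -0.25. In C4-2B MDVR 4 of the 18 were higher and 9 lower, beside 35.5% and 39.9% of all genes.

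Some histones made outside S phase, H3F3B and H1F0 among them, lay above every replication-dependent gene per length, and others such as CENPA, the centromeric H3, at 2.25 to 23.4 FPKM, did not. H3F3B, which encodes H3.3, was at 337, 396 and 231 FPKM in C4-2B MDVR and at 321, 948 and 226 FPKM in CWR22Rv1. H1F0, which encodes the linker histone H1.0, was at 221, 237 and 119 FPKM and at 187, 784 and 115 FPKM. H2AFX, whose protein is phosphorylated at DNA breaks, was at 230, 87.7 and 41.7 FPKM and at 287, 135 and 129 FPKM. Of the 11 such genes above 0.1 FPKM, 8 were lower with VER in C4-2B MDVR and 10 in CWR22Rv1, and with APO 3 and 4 were. With VER 1 and 0 were higher, and with APO 2 and 4. Of 15 chaperone and assembly genes, 11 were lower with APO in C4-2B MDVR and 10 with VER, and 6 and 10 in CWR22Rv1, while 2, both with APO in CWR22Rv1, were higher. NASP, which carries soluble H1 and H3 with H4, was at 154, 63.5 and 57.9 FPKM and at 136, 55.2 and 74.3 FPKM. ASF1B, which binds H3 with H4 in proliferating cells, was at 30.8, 11.3 and 2.79 FPKM and at 51.2, 14.3 and 23.6 FPKM.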

How the data were processed

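The authors aligned paired-end reads with HISAT, quantified with Cufflinks and deposited Cuffnorm-normalized FPKM, 1 value for each gene, on GRCh38 per the labels; versions are not given in the sources used here. The paper names another library kit than the labels, whose kit selects poly(A) RNA and marks strand. Genes were matched by Ensembl identifier to GENCODE 29, and 57047 of 60658 had a symbol. Differences are of log2(FPKM + 0.1), which understates low genes, and the threshold was 1.2-fold. Members and lists were chosen with earlier results of these data known, and the split at 150 bases and the minimum means of 1 FPKM after seeing them. Genes named with values were the 20 highest by mean and, per comparison, those with the largest differences among genes averaging 1 FPKM or more; the others illustrate a list, pair or filter and were chosen after their values were seen. Shared stretches are exact 100-base matches between GENCODE transcripts, on the same strand or as the reverse complement. A stem-loop is a perfect or 1-mismatch stem of 6 bases around 4 in the 3′ untranslated sequence. All 71 symbols were matched to current RefSeq symbols. Part of the marker list is not reported here. The functions for log2 differences and for counts over the threshold were tested on simulated data. Python 3.11.15, pandas 2.3.3, numpy 2.4.6 and matplotlib 3.10.9 were used.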

Additional observations from a re-analysis of the deposited data

Results flagged for a closer look

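Differences between the cell lines in the response to an inhibitor were not tested, since each condition has 1 library. The genes below were beyond 1.2-fold in opposite directions in the lines, among the genes named by rule. The value given is the log2 difference in C4-2B MDVR minus that in CWR22Rv1. With APO it was -1.45 for HIST1H2BK, an H2B gene, and -1.18, -3.24 and -1.82 for the H4 genes HIST1H4H, HIST1H4J and HIST1H4K. With VER it was -3.09 for HIST1H2BK, -1.84 for HIST1H4H and -1.59 for HIST1H4K. It was -0.93 for HIST2H2AA3 and -2.91 for HIST1H2AM, both H2A genes, and 1.89 for HIST2H4A, which alone was higher in C4-2B MDVR and lower in CWR22Rv1. Of these, HIST1H4J, HIST1H4K, HIST2H2AA3, HIST1H2AM and HIST2H4A share most of their sequence with another histone gene, while HIST1H2BK and HIST1H4H share none.

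For 7 further comparisons a library listed at 0 allows no difference, and the highest FPKM of the libraries compared is given, which was that of C4-2B MDVR with DMSO in each. These were HIST1H4A with APO (18.6 FPKM), and HIST1H4B (5.04 FPKM) and HIST2H2AA4 (3.92 FPKM) with either inhibitor. The others were HIST1H4J (9.15 FPKM) and HIST1H3B (8.77 FPKM) with VER. HIST1H4A, HIST1H4B and HIST1H3B reached a mean of 1 FPKM only with that DMSO library. For them it had to be higher, on average, than the other libraries.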

How the results depend on the processing

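No paired analysis was possible because each condition has 1 library, and for the same reason none could be left out. At 2-fold in place of 1.2-fold, 4 genes were higher in C4-2B MDVR with either inhibitor. In CWR22Rv1 15 were higher and 10 lower with APO, and 11 higher and 8 lower with VER. The median with VER in CWR22Rv1 was 0.29 with the filter applied within that line or with the mean minimum of 1 FPKM, the latter chosen after seeing the data, beside 0.00 over the 57 genes. Genes lower in C4-2B MDVR than in CWR22Rv1 with DMSO numbered 4 when above 1 FPKM in a library and 1 with the mean minimum, in place of 8. With the mean minimum over the libraries not compared, also chosen after seeing the data, 13 genes were lower with APO and 15 with VER in the line C4-2B MDVR, in place of 37 and 38, and the median after VER in CWR22Rv1 was 0.28. Between the lines it left 26 genes higher and 1 lower, in place of 47 and 8. The construction, fewer genes tested, accounts for part of these counts. Of 275 recomputed counts, medians and class sums, 260 kept their side of the threshold or moved by less than 1.5-fold (counts) or 1.2-fold (sums). Pseudocounts of 0.01 and 1, no filter and rescaling were among the alternatives, and no direction of a called value was turned. Of the single-gene differences, 12 dropped below 1.2-fold and 10 passed it under an alternative. Rescaling to the same sum outside the mitochondrial chromosome moved the median of all genes with the mean minimum by up to -0.13 with APO in C4-2B MDVR and -0.14 with APO in CWR22Rv1, where the same sum over all genes gave 0.11. Depth limits the genes under about 1 FPKM.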
